A study of Mus musculus with 96 samples.

Results

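The genes examined were the 2 that encode the histone variant H3.3, H3f3a and H3f3b, and 7 genes for proteins that bring H3.3 to chromatin, taken by their symbols from the table of counts. They are 9 of the 55487 genes listed, and all 9 passed the filter on low counts, a count of 10 reached in 10% of the cells, which left 14463 genes. The cells were wild type horizontal basal cells (HBCs), stem cells of the olfactory epithelium (OE), from adult mice of 6 to 8 weeks. The mice had received methimazole, a drug that injures the OE, 2 days before dissection, and the HBCs were then grown ex vivo on coated dishes. After a division both daughter cells were picked by hand and sequenced one by one, which gave 96 cells in 48 pairs of 1 group.

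H3.3 is the form of histone H3 that is placed on chromatin throughout the cell cycle, whereas the replication-dependent H3 proteins are placed behind the replication fork. Separate machines carry it: the HIRA complex (Hira, Ubn1 or Ubn2, and Cabin1) serves active genes and gaps in the nucleosome array, while Daxx and Atrx serve heterochromatin, telomeres and silenced repeats. Dek is a chromatin protein that also acts as an H3.3 chaperone, and it is known for its high level in dividing cells.

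H3f3a lies at chr1:180800832-180813943 and H3f3b at chr11:116021912-116027962, both on the minus strand of GRCm38. Their coding sequences were 411 bases each and differed at 95 positions, 81 of them at the third base of a codon, and 0 of 137 codons were read differently. The first 90 coding bases of both genes are shown because they let the reads of the genes be told apart. Beside them stand Gm10257 and H3f3c, which are annotated as processed pseudogenes. These 2 are nearly identical to H3f3a over their 411 bases and differ from its coding sequence at 4 positions each. The sequences are from GENCODE transcripts on GRCm38, and capitals mark the bases that differ from H3f3a.
H3f3a: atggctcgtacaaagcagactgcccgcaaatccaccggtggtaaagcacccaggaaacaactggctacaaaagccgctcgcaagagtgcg
H3f3b: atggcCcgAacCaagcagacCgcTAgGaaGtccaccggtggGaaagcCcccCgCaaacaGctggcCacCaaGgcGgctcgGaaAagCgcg
Gm10257: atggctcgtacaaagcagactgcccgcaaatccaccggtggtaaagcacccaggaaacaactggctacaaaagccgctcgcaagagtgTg
H3f3c: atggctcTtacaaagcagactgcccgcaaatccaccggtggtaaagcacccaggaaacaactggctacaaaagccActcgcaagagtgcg
In this stretch H3f3b differed from H3f3a at 20 bases, Gm10257 at 1 and H3f3c at 2. The transcripts of H3f3a and H3f3b shared 0 runs of 31 bases. By contrast, 27 annotated processed pseudogenes shared at least 20% of their runs of 31 bases with H3f3a, and 2 did with H3f3b. Together these copies held counts equal to 3.58% of those of H3f3a and 0.197% of those of H3f3b, so reads placed on copies were few beside those of the parent genes. How the reads of the copies and of their parents were divided was not tested.

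Each cell had between 29454150 and 44849003 reads counted on genes. Normalized counts below are counts divided by a size factor from the ERCC spike-in, synthetic RNA added to every cell, CPM are counts scaled to the same total in every cell, and TPM are the authors' values scaled for gene length. The keratin genes Krt5 and Krt14 and the stem cell factor Trp63, which define HBCs, were counted in all 96 cells. Of 10 HBC markers 7 were counted in every cell, and the others were Icam1 in 86 cells, Krt15 in 68 and Cxcl14 in 12. Of 16 markers of other OE cells and of blood, 3 were counted in 0 cells and none in more than 22. Only 1 of them, Gap43, passed the filter. Single cells held many counts of some, up to 2107 for Gap43 and 1296 for Lgr5. The labels name neither mouse nor culture, so there are no independent replicates to compare, and no test or p-value is given. Intervals are 95% intervals by the exact Clopper-Pearson method and speak of counting error only.

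Transcripts of H3.3 were above those of every chaperone gene at the median. H3f3b was the main H3.3 gene, with 185 TPM in the lowest cell, a median of 886 and 2126 in the highest, against 98.4, 234 and 457 TPM for H3f3a. The level of H3f3b per length was above that of H3f3a in 96 of 96 cells. H3f3b made up between 52.4% and 91.3% of the H3.3 TPM of a cell, with a median of 78.6% and medians of 75.4% to 82.2% in 12 sets of 8 cells that the deposited names give. The median gap between daughter cells was 4.74 percentage points, where the SD over all cells was 7.57 points and the intraclass correlation of the share 0.28. The widest gap was 25.8 points in pair 36, where the shares were 57.7% and 83.5%.

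Among the chaperones, Dek was the most abundant, with 4.84 TPM in the lowest cell, a median of 73.9 and 163 in the highest. Atrx, a chromatin remodeller encoded on the X chromosome, followed with a lowest value of 7.09, a median of 43.3 and a highest of 116 TPM. Both were counted in all 96 cells. Daxx, the histone-binding partner of Atrx, had a median of 21.8 TPM and reached 117, but its count was 0 in 7 cells.

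The 4 genes of the HIRA complex lay lowest and near each other. Hira, which gives the complex its name and its scaffold, had a median of 14.2 TPM and ranged from 0 to 75.3. Cabin1, a large subunit, had a median of 12.6 TPM with a range of 0 to 64.4. The ubinuclein genes Ubn1 and Ubn2, whose proteins bind H3.3 within the complex, had medians of 10.0 and 7.66 TPM and highest values of 59.1 and 33.9.
The order of these last 4 genes is not set by the data. Hira was above Cabin1 in 48 of 96 cells, Cabin1 above Ubn1 in 52 and Ubn1 above Ubn2 in 49, and Daxx was above Hira in 54. Higher in the order, Dek was above Atrx in 70 cells and Atrx above Daxx in 74, while H3f3a was above Dek in 94. The ranges of all neighbours overlapped.

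**Figure D1:**
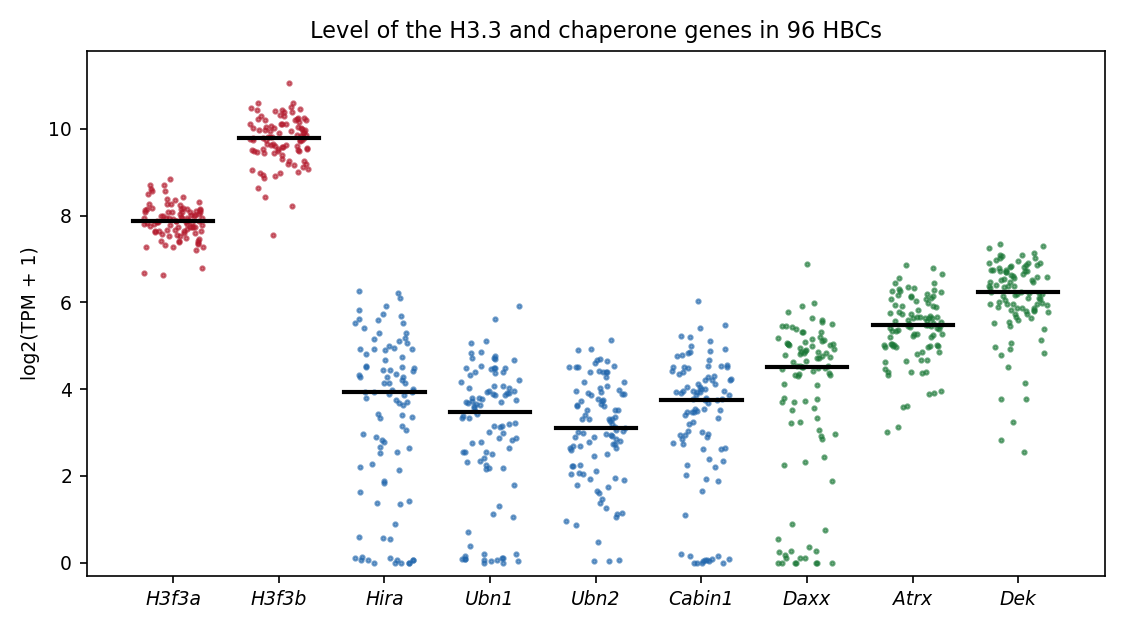
Level of the 9 genes in each of 96 HBCs on the log2(TPM + 1) scale. Points are cells, black lines are medians, and colours set apart the H3.3 genes (red), the HIRA complex (blue) and Daxx, Atrx and Dek (green). H3f3b has a median of 886 TPM, and the blue genes have medians of 7.66 to 14.2 TPM with cells down to 0 or nearly 0.

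A count of 0 was seen for Hira in 5 cells, Cabin1 in 4, Ubn1 in 2 and Daxx in 7, and for the other 5 genes in none. All 9 genes were counted in 79 cells, 8 in 16 cells and 7 in 1 cell. All 4 HIRA complex genes were counted in 85 cells and 3 of them in the other 11. Against the shares of cells with a count, 94.8% for Hira (interval 88.3% to 98.3%) and 92.7% for Daxx (85.6% to 97.0%), the shares with at least 1 TPM were 82.3% and 81.2%. A count of 0 allows up to 3 reads, for counting error only. Reads from amplified cDNA are not molecules, so this sets no limit on the transcripts in a cell.

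Levels also differed between the 12 sets. Median CPM of a set ran from 302 to 473 for H3f3a and from 672 to 1319 for H3f3b, whereas it ran from 6.05 to 79.8 for Cabin1 and from 5.14 to 50.2 for Daxx. Dek ran from 75.8 in set 4 to 154 in set 1, the set that also holds the cells lowest for Dek. Whether sets were handled together is not stated.

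Summed over genes, the H3.3 TPM of a cell was 22.0 times that of the HIRA complex at the median, with a range of 4.95 to 130. It was 17.7 times the sum of Daxx and Atrx, with a range of 5.51 to 70.8. H3.3 TPM had medians between 739 and 1380 in the 12 sets. The replication-dependent H3 genes were each near 0 in most cells, with a summed median of 40.5 TPM over 12 genes that reached 296 TPM in the highest cell, and the highest single median, 2.67 TPM, for H3c3. Their mRNAs lack a poly(A) tail and the RNA was captured on oligo-dT beads, so their TPM cannot be set against those of H3f3a and H3f3b as amounts of histone mRNA.

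A pair of daughter cells was called past 1.5-fold for a gene when the normalized counts of its daughters stood in a ratio of 1.5 or more, a cutoff taken from the study's legends. Of the 9 genes, the H3.3 genes were past it in the fewest pairs, and Cabin1 and Hira in the most. H3f3a and H3f3b were each past 1.5-fold in 15 of 48 pairs (31.2%, interval 18.7% to 46.3%), and 6.78% of the genes that passed the filter had 15 pairs or fewer. Of the 15 pairs past 1.5-fold for H3f3a, 6 were past it for H3f3b also (40.0%, interval 16.3% to 67.7%). Of the other 33 pairs, 9 were past it for H3f3b (27.3%, interval 13.3% to 45.5%). The 2 intervals overlapped, which does not show that the shares are alike. The largest ratio for H3f3a was 2.87, in pair 17, where 1 daughter had a normalized count of 34203 and the other 11925.

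Of the 9 genes, 6 chaperone genes had at least 24 pairs past 1.5-fold, as did 79.8% of all genes that passed the filter. Atrx was the exception with 17 pairs (35.4%, interval 22.2% to 50.5%), but on the deposited TPM it was past 1.5-fold in 54.2% of pairs and no exception. Dek had 24 pairs (50%, interval 35.2% to 64.8%). Ubn2 had 34 pairs, Ubn1 and Daxx 35 each, Hira 40 and Cabin1 41, where the median gene had 34. Raised to 2-fold, the cutoff left 5 pairs each for H3f3a and H3f3b, 9 each for Atrx and Dek and 21 for Ubn2. It left 27 for Daxx, 29 for Ubn1, 33 for Cabin1 and 39 for Hira. The number for all genes was not examined at 2-fold.

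In some pairs the genes of the HIRA complex and Daxx were counted almost entirely in 1 daughter. Hira had 3775 counts in 1 daughter of pair 42 and 5 in the other, and Cabin1 had 7 and 4880 counts in the daughters of pair 41. Daxx had 5 and 1646 counts in pair 22. A daughter at 0 counts stood beside one with counts in 5 pairs for Hira, 2 for Ubn1, 2 for Cabin1 and 7 for Daxx, and both daughters were at 0 for Cabin1 in 1 pair.

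Pairs past 1.5-fold for an H3.3 gene were compared with the others for each chaperone. Dek was past 1.5-fold in 10 of the 15 pairs past it for H3f3a (66.7%, interval 38.4% to 88.2%) and in 14 of the other 33 (42.4%, interval 25.5% to 60.8%). Daxx went the other way, in 7 of 15 pairs (46.7%, interval 21.3% to 73.4%) against 28 of 33 (84.8%, interval 68.1% to 94.9%). For H3f3b the widest gap was that of Ubn1, past 1.5-fold in 14 of 15 pairs (93.3%, interval 68.1% to 99.8%) and in 21 of 33 (63.6%, interval 45.1% to 79.6%). Ubn2 was past it in 8 of the 15 pairs of H3f3a and in 26 of the other 33. These combinations were picked after their values were seen, for their wide gaps, and the intervals of the 2 groups of pairs overlapped in each. Overlap does not show that the shares are alike, and the 2 groups were not tested against each other.

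The ERCC transcripts, whose amount was the same in every lysate, give a reference for these ratios. ERCC transcripts with a mean between 10 and 100 TPM were past 1.5-fold in a median of 77.1% of pairs, with a range of 62.5% to 87.5% over 18 transcripts. Genes in this range of TPM had a median of 75%, and Hira, Ubn1, Cabin1 and Daxx, at 72.9% to 85.4%, lay within the range of the ERCC transcripts. Atrx at 35.4% and Dek at 50% lay below it. Between 100 and 1000 TPM the 12 ERCC transcripts had a median of 41.7% and a range of 14.6% to 60.4%, which holds the 31.2% of H3f3a and H3f3b. H3f3b lay at the upper edge of this range with a mean of 911 TPM. The 9 ERCC transcripts above 1000 TPM were past 1.5-fold in a median of 0% of pairs and at most 22.9%, below the 31.2% of H3f3b. The size factors came from the 22 ERCC transcripts counted in every cell, so the scaling itself draws the ratios of those transcripts toward 1. For this reason nothing is concluded from H3f3b lying above the most abundant ERCC transcripts. Ubn2, with a mean of 9.90 TPM, was at 70.8%, which is the median of the genes between 1 and 10 TPM. It lay within the 8.33% to 87.5% of 23 ERCC transcripts of that range. Their median of 27.1% was below that of the ERCC transcripts between 10 and 100 TPM. A pair with no count in either daughter is not past 1.5-fold, so few counts alone can lower a share. How often this befell these ERCC transcripts was not examined, whereas Ubn2 was counted in all 96 cells. None of the 9 genes was past 1.5-fold in a larger share of pairs than the highest ERCC transcript of its own range of TPM. The highest of a few transcripts over so wide a range of TPM is a loose bound, so nothing more is concluded from this. What the level of a gene contributes to its ratios was not tested.

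**Figure D2:**
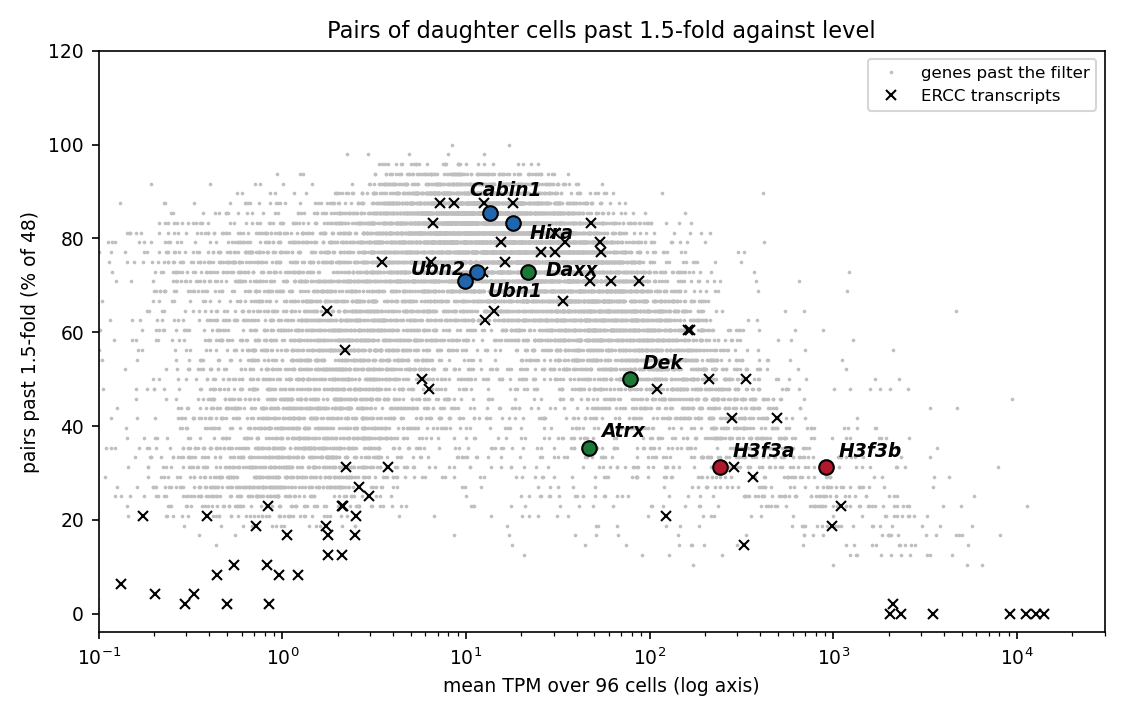
Share of 48 pairs past 1.5-fold for each gene (vertical axis) against its mean TPM over 96 cells (horizontal log axis). Grey points are the 14463 genes past the filter, crosses are ERCC transcripts, and coloured circles are the H3.3 genes (red), the HIRA complex (blue) and Daxx, Atrx and Dek (green). H3f3a and H3f3b lie at 31.2%, and Hira and Cabin1 above 80%.

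Whether daughters of a division were alike was described by the intraclass correlation, the share of the variance of log2(CPM + 1) that lies between pairs. Dek had the highest value of the 9 genes at 0.67, above 99.2% of genes, and H3f3b was next at 0.50, above 95.7%. A value of at least 0.5 was reached by 4.4% of all genes. Atrx had 0.33 and H3f3a 0.25, where the median gene had 0.11.
Ubn1 and Ubn2 had 0.22 each, Daxx 0.18 and Cabin1 0.11. Hira had -0.17, which only 3.22% of genes went below, and 27% of genes were under 0. Without set 8, the value of Cabin1 was -0.16.

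The value of Dek rested on few pairs. Both daughters of pair 4 were very low, with 330 and 229 counts or 7.36 and 5.93 CPM, against a median of 95.1 CPM over all cells. Both daughters of pair 15 were low as well, at 16.0 and 11.0 CPM, and those of pair 31 were the highest pair at 220 and 148 CPM. Without pair 4 the intraclass correlation of Dek was 0.52, and without pairs 4 and 15 it was 0.36. Without set 1, which holds pair 4, it was 0.50. The next highest pairs, 1, 42 and 48, had ratios between daughters of 1.12, 1.23 and 1.11 in CPM.

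**Figure D3:**
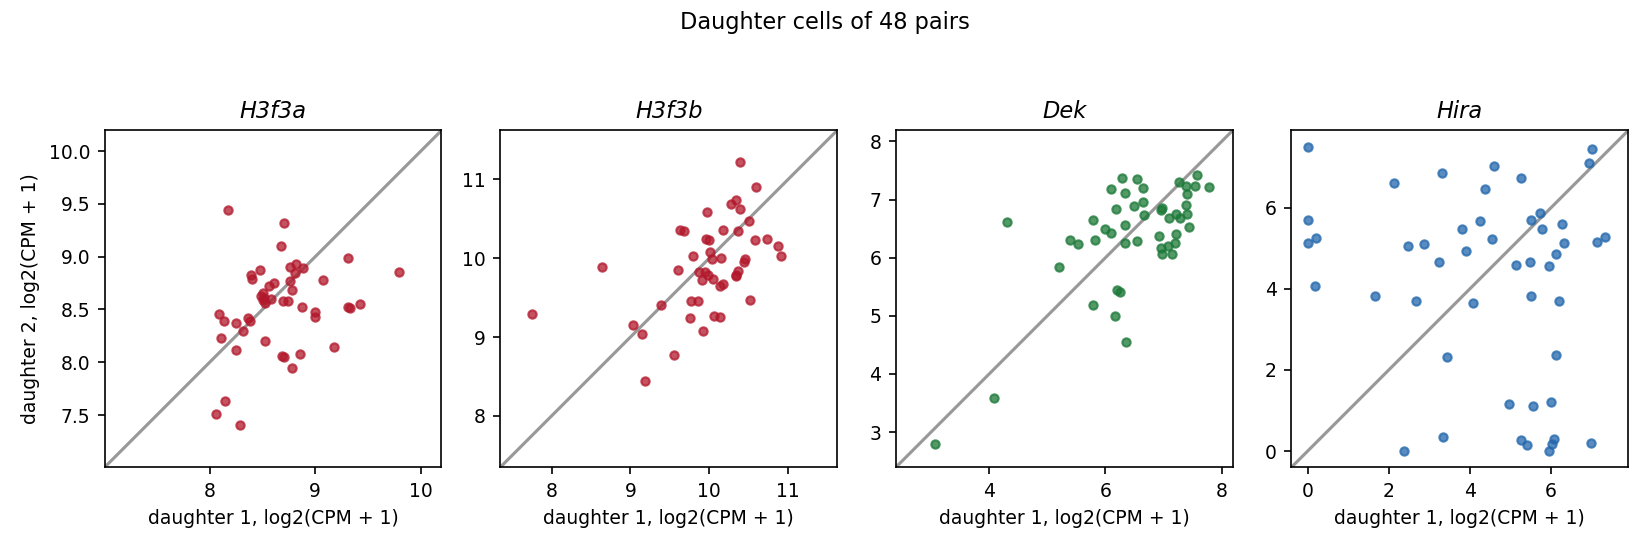
Daughter 2 against daughter 1 of the 48 pairs on the log2(CPM + 1) scale for H3f3a, H3f3b, Dek and Hira. Each point is a pair and the line marks equal values. Dek shows 2 pairs with both daughters low, at the lower left, and Hira shows cells near 0 beside daughters with high values.

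The chaperone genes were then set against H3f3a and H3f3b over the 96 cells, by Spearman's rho on log2(CPM + 1). The points share libraries, pairs and sets, so the values describe these cells only. A single chaperone reached 0.4: Dek had a rho of 0.56 with H3f3b (Pearson's r 0.46). Of all genes 0.754% reached 0.4 with H3f3b, and 0.201% did so with H3f3a. No other combination of an H3.3 gene with a chaperone gene reached 0.4. Atrx had the next value, 0.29 with H3f3a, which was above that of 98.6% of genes, but it was 0.15 on the deposited TPM. Dek had 0.19 with H3f3a. H3f3a and H3f3b had 0.22 with each other.
The scale of the values matters here. With ERCC size factors the median gene had a rho of 0.21 with H3f3a and 0.17 with H3f3b, where it had 0.01 and -0.01 on the CPM scale. On that scale H3f3a had 0.60 with H3f3b, 0.58 with Atrx and 0.43 with Dek, and Dek had 0.59 with H3f3b. The largest values of other chaperone genes were then 0.39 for Atrx with H3f3b and 0.33 for Ubn2 with H3f3a.

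The lowest cell for H3f3b, at 214 CPM, had 18.7 CPM of Dek. In pair 44, where H3f3b reached its highest value of 2384 CPM, Dek was at 162 CPM in the same cell. Pair 4 stood apart with 996 and 1208 CPM of H3f3b beside the lowest values of Dek. The rho of Dek with H3f3b was 0.57 without pairs 4 and 15, 0.47 with values centred on sets, and 0.63 over the 48 pair means.

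Genes of mitosis were correlated with both. The mean level of 15 mitosis genes, among them Mki67, Top2a and Ccnb1, had a rho of 0.47 with Dek and 0.46 with H3f3b, against -0.0020 with H3f3a, and 1.9% of genes reached 0.4. With ERCC size factors H3f3a had 0.42 with the mitosis genes, H3f3b 0.62 and Dek 0.64. On that scale the median gene had a rho of 0.21 with H3f3a and 0.17 with H3f3b. The values of all genes with the mitosis genes were not examined on that scale. Nothing is therefore concluded from the 0.42 of H3f3a. On the CPM scale 9 of the 15 singly reached 0.4 with H3f3b, where 0.754% of all genes did. With H3f3a 0 of them reached it, where 0.201% of all genes did. With the mitosis genes held constant, the rho of Dek and H3f3b was 0.44. The mean of 15 S phase genes had a rho of 0.00092 with H3f3b and 0.26 with Dek, and 1.34% of genes reached 0.4 with it. The value of Dek was above that of 93.7% of genes, and it was 0.35 with values centred on sets. Pearson's r with the S phase genes was 0.54 for Dek and 0.16 for H3f3b, and with the mitosis genes 0.63 and 0.48. The daughters of pair 4 had 1.48 and 1.68 on the mitosis scale, mean log2(CPM + 1), and those of pair 15 had 2.23 and 1.40, where the median cell had 6.19. The part of the cell cycle in the relation of Dek and H3f3b was otherwise not tested.

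**Figure D4:**
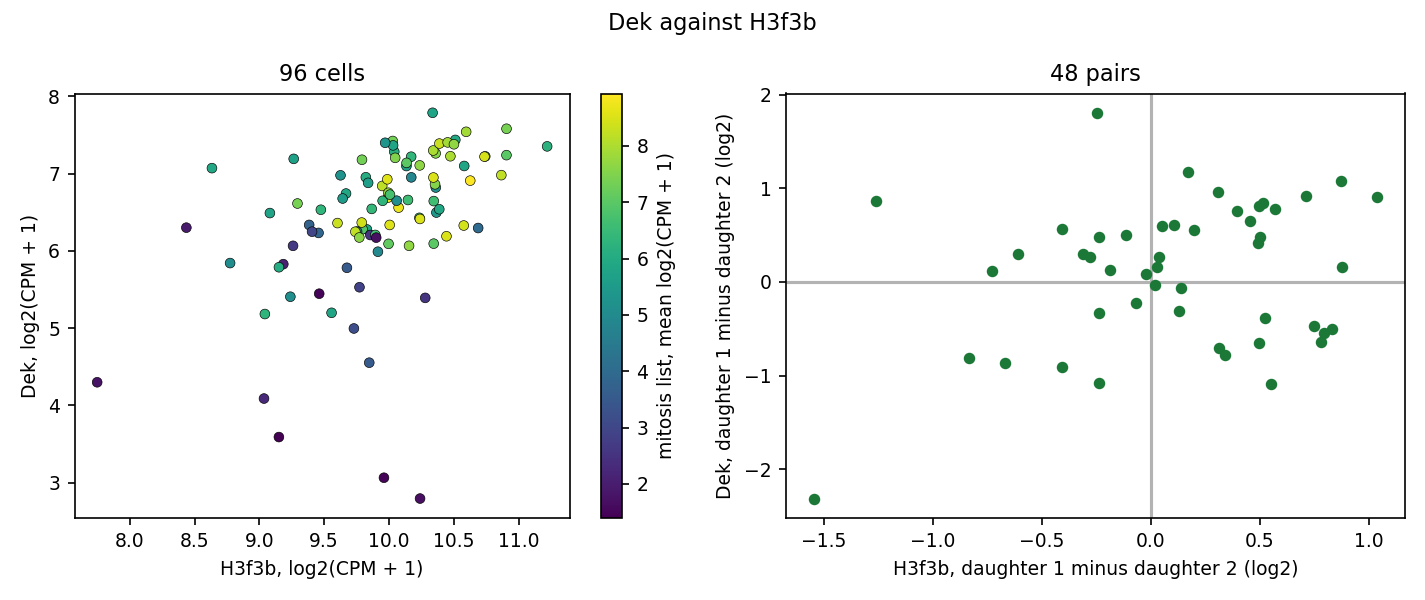
Left, Dek against H3f3b in 96 cells on the log2(CPM + 1) scale, coloured by the mean of the mitosis genes on the same scale. Right, the difference of Dek between daughters 1 and 2 against that of H3f3b in 48 pairs, in log2 units. On the left rho is 0.56, with most dark cells, low in mitosis genes, toward low Dek, and on the right it is 0.16.

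The relation of Dek and H3f3b was seen over cells and pair means and was weak between the daughters of a pair. Over the 48 differences between daughters its rho was 0.16, above that of 86.2% of genes. With intraclass correlations of 0.67 and 0.50, much of the variance of Dek and H3f3b lay between pairs. Whether this lowered the rho of the differences was not tested. No chaperone gene reached 0.4 there with either H3.3 gene, as 0.325% of all genes did with H3f3b and 0.456% with H3f3a. The 14 combinations of an H3.3 gene with a chaperone gene lay between -0.11 and 0.18. The differences of H3f3a and H3f3b themselves had a rho of 0.13.

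Pair 46 was an exception in which both genes differed most. H3f3b had normalized counts of 10846 and 36793 in its daughters, a ratio of 3.39, and Dek had 946 and 5688, a ratio of 6.01. The daughter low in both had 1.78 on the mitosis scale and the other 7.38. Hira had 0 and 1635 counts in the same daughters, and Ubn1 had 4 and 563. Atrx and Ubn2 were closer there, with normalized counts of 7668 and 9004 for Atrx and of 2008 and 2020 for Ubn2.

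The direction of the difference was counted as well. In each pair the daughter with more H3f3a, or more H3f3b, by normalized count was asked whether it also had more of the chaperone. For H3f3a the count was 29 of 48 pairs for Hira and Ubn2, 27 for Ubn1 and Daxx, 24 for Atrx and Dek, and 22 of 47 for Cabin1, equal at 0 in 1 pair. For H3f3b it was 29 for Ubn2 and Daxx, 27 of 47 for Cabin1, 26 for Atrx, 25 for Hira and Ubn1, and 24 for Dek. None reached 30, which 9.54% of all genes did for H3f3a and 8.83% for H3f3b, and every interval held 50%, such as 45.3% to 74.2% for a count of 29. A daughter with more H3.3 transcript was therefore not shown to have more transcript of any chaperone at this number of pairs.

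Genes of a complex were hardly correlated with one another. The 6 combinations of the 4 HIRA complex genes had rho between -0.14 and 0.24 over cells, with a median of -0.02, and between -0.17 and 0.16 over differences between daughters. Daxx and Atrx had -0.23 over cells and -0.19 over differences. Hira and Daxx had the lowest value of the 36 combinations, -0.28, and Ubn2 and Atrx had 0.25. At the levels of Hira, Ubn1, Cabin1 and Daxx many values are near 0, and weak correlations there carry little.

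**Figure D5:**
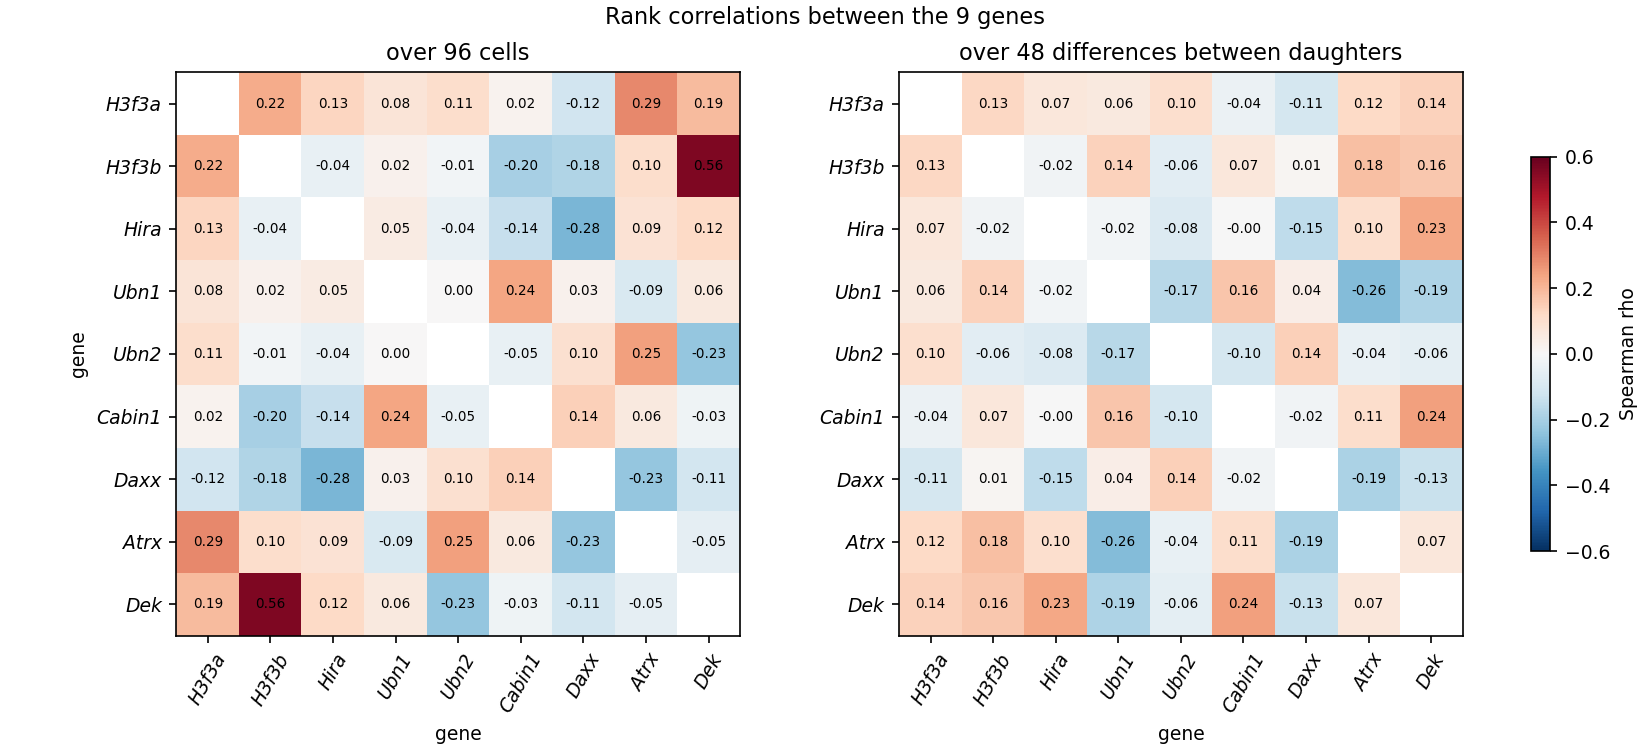
Spearman's rho between the 9 genes over 96 cells (left) and over the 48 differences between daughters (right), on log2(CPM + 1). Red is positive and blue negative, and each cell prints its value. Dek with H3f3b at 0.56 is the only combination past 0.4 in size, and it is 0.16 on the right.

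A list of 20 other genes of H3 handling was set beside them. It holds the chaperone genes Asf1a and Asf1b, Nasp, the replication-coupled assembly factors Chaf1a and Chaf1b, the centromere chaperone Hjurp, remodellers such as Chd1 and Chd2, readers and writers of H3 methylation, and PML body genes. None of the 20 reached 0.4 in size with H3f3a or H3f3b. The closest was Psip1, a reader of H3K36 methylation, at 0.39 with H3f3b, and the medians of the list were 0.02 with H3f3a and 0.04 with H3f3b.
Over the list the median intraclass correlation was 0.22, with a range of -0.11 to 0.53. Of the 20, 2 reached 0.5, Chaf1a at 0.53 and Rpa1 at 0.51, where 4.4% of all genes did. A count of 2 in so short a list is not set apart from that share. Chaf1b had 0.49, whereas Rbbp4, a further subunit of the same assembly factor, had -0.04. Asf1b had 0.42 and Asf1a had -0.11.

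The genes with the most similar pattern were sought for each of the 9 among the genes past the filter, by Spearman's rho over 96 cells. For H3f3a they were the processed pseudogenes Gm10257 at 0.79, H3f3c at 0.75 and Gm6421 at 0.69. They share 70.9%, 79.3% and 75.5% of their runs of 31 bases with H3f3a. For H3f3b they were Gm43584 at 0.62, Gm21596 at 0.61 and Gm6485 at 0.60, of which Gm43584 shares 15.1% and Gm6485 46.2% of its runs with H3f3b and Gm21596 shares 0%. Values of genes with shared sequence may hold reads of the parent gene and cannot be told apart from it.
For Dek they were the chromatin genes Hmgb2 at 0.63 and Cbx3 at 0.62, and Gm13237 at 0.61. The nearest genes of the other chaperones were weaker. Ubn2 had Wdfy2 at 0.43, Ulk1 at 0.41 and Acap2 at 0.41, and Daxx had B130046B21Rik at 0.42, Helb at 0.42 and Zfp983 at 0.41. Below 0.4 were those of Ubn1 (Slain2, Czib and Cdc6), Cabin1 (Gm4217, Gm7336 and Gm2606), Hira (Pygl, Atpaf2 and Fbxl4) and Atrx (Itpr1, Fxyd3 and Gclc).

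The promoters of H3f3b and Dek, the genes that went together over cells, are shown as the 120 bases before the start in RefSeq on GRCm38.p6, both on the minus strand. Capitals mark matches on either strand to CCAAT, bound by the factor NF-Y, and to GGGCGG, bound by Sp1-like factors. H3f3b is at chr11:116024505-116024624 and Dek at chr13:47106222-47106341. The start used for H3f3b is that of 1 of its 4 GENCODE transcripts, and 1 longer transcript starts 3458 bases upstream, so the window lies inside the gene span given above. The start used for Dek is 20 bases upstream of the outermost start of its 7 GENCODE transcripts. The bases after the start were found in a transcript of the gene for 7 of 11 starts listed for the 9 genes.
H3f3b: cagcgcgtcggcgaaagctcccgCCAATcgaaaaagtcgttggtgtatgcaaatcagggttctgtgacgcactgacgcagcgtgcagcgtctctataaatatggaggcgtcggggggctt
Dek: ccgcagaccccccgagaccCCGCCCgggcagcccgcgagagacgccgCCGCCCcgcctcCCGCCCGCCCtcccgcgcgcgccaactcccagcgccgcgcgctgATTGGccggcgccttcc
Each holds 1 match to CCAAT, and Dek has 4 matches to GGGCGG in this window, 2 of them overlapping, where H3f3b has 0. In the 250 bases before the start, CCAAT on either strand was found for 7 of the 9 genes, all but Hira and Ubn2, and in 33.8% of 32851 promoters. GGGCGG was found for 6 of 9 and in 32.7% of promoters. The cell cycle motifs TTTGAA and TTCGAA were found in neither H3f3b nor Dek. A match describes the letters and is not shown to be a bound site.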

How the data were processed

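The authors trimmed reads with Trimmomatic 0.39, aligned them with STAR 2.7.11a to GRCm38 with Ensembl release 100 and ERCC sequences, and counted them per gene with StringTie 2.2.1 (submitters' notes and methods). They deposited integer counts without normalization and, per cell, TPM, which scale for length and total. Library strand was not given in the sources used here, so reads of overlapping genes may be shared.

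Counts were divided by size factors from the ERCC transcripts (median of ratios, 22 of 92 transcripts, those that every cell held; 0.387 to 1.93) for ratios between daughters. Correlations used log2(CPM + 1), a pseudocount of 1. No fold used a pseudocount. Python 3.11.15, numpy 2.4.6, scipy 1.17.1 and pandas 2.3.3 were used, and the intraclass, ratio and rank calculations were tested on simulated data. The members and lists were chosen with earlier results of these data known. Genes named are the 9, the genes of the H3 list past 0.4 in size or described above by their role, and the 3 genes nearest each of the 9. Other genes, and the pairs described singly, were chosen after their values were seen. Sets of 8 cells come from deposited names and are not stated to be batches. The label HBC was checked with marker genes. Alternatives were other scalings, cutoffs, pseudocounts, filters, and leaving out each set.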

Additional observations from a re-analysis of the deposited data

How the results depend on the processing

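The cells form 1 group and no groups were compared, so a replicate block had no fit to enter, and daughters were compared within their pairs throughout. The alternatives numbered 1030 over 95 results, and 979 left the value within 1 SD over all genes for correlations or within its counting interval for shares. None turned a correlation past 0.4 in size, or an intraclass correlation of at least 0.5, to the other sign. A change of sign is a weak check for values of this size, since it does not count those that fall under 0.4 or 0.5. The intraclass correlation of Dek fell to 0.36 in 1 alternative, and that of H3f3b was only 0.502 at the outset. The cause of the changes below was not tested, except that a higher minimum or cutoff or the missing filter changes what is counted. The rest were moved as follows. With 10 counts asked of a cell, Hira was present in 86.5% and Ubn1 in 91.7% of cells, and with 1 TPM Hira in 82.3%, Ubn1 in 83.3%, Ubn2 in 93.8%, Cabin1 in 86.5% and Daxx in 81.2%. With a cutoff of 2 the shares of pairs were 10.4% for H3f3a and H3f3b, 43.8% for Ubn2, 68.8% for Cabin1, 56.2% for Daxx and 18.8% for Atrx and Dek. On deposited TPM Atrx was past 1.5-fold in 54.2% of pairs, and its rho with H3f3a was 0.15 over cells and -0.036 over differences. With ERCC size factors the intraclass correlation of H3f3a was 0.45. On this scale rho over cells with H3f3a was 0.60 for H3f3b, 0.27 for Ubn1, 0.33 for Ubn2, 0.22 for Cabin1, 0.21 for Daxx, 0.58 for Atrx and 0.43 for Dek, and over differences 0.31 for Ubn2. With H3f3b it was 0.22 for Ubn1, 0.31 for Ubn2, 0.031 for Cabin1, 0.19 for Daxx and 0.39 for Atrx. With the S phase genes it was 0.24 for H3f3a, 0.15 for H3f3b, 0.064 for Ubn2, 0.33 for Daxx and 0.19 for Atrx, and with the mitosis genes 0.42 for H3f3a, 0.62 for H3f3b, 0.040 for Ubn2, 0.20 for Daxx, 0.23 for Atrx and 0.64 for Dek. Centred on sets, rho of Cabin1 with H3f3b was -0.062, and over pair means -0.40, while over pair means Atrx had 0.47 with H3f3a. Without a filter on counts, 38.1% of genes had at least 24 pairs past 1.5-fold, 2.61% an intraclass correlation of 0.5, 0.337% a rho of 0.4 with H3f3b and 0.0942% with H3f3a. Leaving out 1 set at a time, the intraclass correlation of Cabin1 ranged from -0.16 to 0.16, that of Dek from 0.50 to 0.73, and rho of Dek with H3f3b from 0.52 to 0.60. Without the 2 pairs lowest for Dek its intraclass correlation was 0.36. The alternatives on pair means, sets for the intraclass correlation, the mitosis genes held, single cells and the pairs lowest for Dek were chosen after seeing the data.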
